A study of Homo sapiens with 21 samples.

Results

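HepG2 cells, an established human liver cancer line, were compared after 6 h in 1000 µM caffeine and after 6 h in the same serum-free medium with caffeine at 0 µM, by RNA sequencing of 3 libraries per group. The comparison was chosen by dose label alone, and its members are all 17468 features that passed the expression filter, of 37637 in the deposited gene table. The same 3 libraries at 1000 µM were also set against the 3 libraries at 0.1 µM, as a check of direction. The study as a whole covered 7 doses in 21 libraries, each made from poly(A)-selected RNA. The design text of the series speaks of coumarin where it describes controls; the labels of the 3 control samples give them as untreated, with caffeine at 0 µM, and were followed. The design text calls the 3 libraries of a group biological replicates without saying that they came from separate cultures. P-values therefore measure the spread between libraries of the same dose, pooled over all 21 libraries. That spread may be technical.

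Caffeine, a methylxanthine, is best known as an antagonist of adenosine receptors. At high concentrations it is also known to inhibit cyclic nucleotide phosphodiesterases, to inhibit kinases of the ATM, ATR and mTOR group, and to open calcium channels of the endoplasmic reticulum (ER). HepG2 cells carry activating changes in beta-catenin, the effector of WNT signalling, and in NRAS, an upstream switch of the MAP kinase cascade, and they keep much of the secretory programme of the hepatocyte. Genes of the aryl hydrocarbon receptor, of sterol synthesis and of p53 are left aside here.

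Total counts ran from 30.8 to 31.7 M (1e+06 counts) at 0 µM, from 32.0 to 34.7 M counts at 0.1 µM and from 32.5 to 40.8 M counts at 1000 µM, and genes of the mitochondrial genome took 6.94% to 7.86%, 5.7% to 6.44% and 6.94% to 10.3% of them. All 12 hepatocyte markers were expressed, with a summed level of 2.97e+04 to 3.18e+04 CPM (counts scaled to a library total of 1e+06, for these markers without TMM factors) at 0 µM against 2.74e+04 to 2.98e+04 CPM at 1000 µM, and 1 of them was called higher and 4 lower. Of 15 markers of immune, endothelial, stromal, neuronal and muscle cells in the table, 4 passed the filter, and of these 1 was called higher and 2 lower. The summed level of all 15 was 145 to 157 CPM at 0 µM against 98.4 to 126 CPM at 1000 µM. CD68, an immune marker, made up much of it, with 68.9 to 82.7 CPM at 0 µM and 53.1 to 75 CPM at 1000 µM, and was not called. PDGFRB, a receptor of mural cells, went from 3.98 to 4.8 CPM up to 8.17 to 8.79 CPM (0.95 ± 0.09), ACTA2, smooth muscle actin, from 67.4 to 70.6 CPM down to 35 to 41.3 CPM (-0.87 ± 0.10), and CD14, a monocyte receptor, from 1.26 to 1.49 CPM down to 0.431 to 0.895 CPM. The fibroblast genes COL1A2, COL3A1 and DCN were at 0 in all 6 libraries.

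At 1000 µM, 3604 features (20.6% of those tested) were called higher and 3600 (20.6%) lower than at 0 µM, at an adjusted p under 0.05 in edgeR's quasi-likelihood test, which stands behind every adjusted p given here. Among the 9745 well-expressed features, with a mean of at least 10 CPM over the 6 libraries, 2681 (27.5%) were higher and 2209 (22.7%) lower. Changes of 2-fold or more were fewer, at 1536 features (8.79%), and 465 of the well-expressed ones (4.77%). The 3 libraries at 1000 µM lay all above the 3 controls for 4531 features (25.9%) and all below for 4761 (27.3%), together 53.2%, and among the well-expressed for 3198 (32.8%) and 2819 (28.9%), together 61.7%. Genes named by rule below had to show this separation, so for them it was fixed in advance and is no further evidence.

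Against 0.1 µM, 2243 features (12.8%) were higher and 2001 (11.5%) lower. Of the 3604 higher features, 3497 were also above the 0.1 µM group and 2013 (11.5% of those tested) were called higher there. Of the 3600 lower features, 3578 were also below it and 1758 (10.1% of those tested) were called lower. The number called in the opposite direction was 0 in both cases. Both comparisons share the 1000 µM libraries, so these shares are not independent evidence. The differences were smaller against 0.1 µM: the median log2 fold change of the higher features was 0.62 against 0 µM and 0.42 against 0.1 µM, and of the lower features -0.69 and -0.47. Between 0.1 and 0 µM edgeR called 0 features, with 2651 at an unadjusted p under 0.05, and DESeq2 called 521. Single libraries weighed on these counts. Without 1000 µM replicate 3, 1400 features were higher and 1031 lower against 0.1 µM, and without 0.1 µM replicate 3 the counts were 1446 and 1144. Leaving out 0.1 µM replicate 3 gave 865 calls between 0.1 and 0 µM, of which 687 were higher.

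The direction of change followed transcript length and base composition across the well-expressed genes, which were divided into 5 classes of equal size by each measure. In the shortest class, with a longest annotated transcript of 207 to 2197 bases, 4.4% of genes were called higher and 50.4% lower, and the median log2 fold change was -0.40. In the longest class, from 6039 to 34526 bases, 55.2% were higher and 5.4% lower, and the median was 0.38. By GC content, 46.2% of the lowest class and 6.7% of the highest class were higher. The difference between the longest and the shortest class, as a median log2 ratio to the 0 µM mean, was 0.74, 0.60 and 0.95 in the 3 libraries at 1000 µM and -0.11, -0.01 and 0.12 in the 3 at 0 µM. At 0.1 µM it was 0.50, 0.69 and 0.09. Replicate 2 thus lay within the range at 1000 µM, replicate 1 somewhat below that range, and replicate 3 within the controls. The part of length and GC in the results was not tested as a cause. Each list of genes below is therefore given as measured and after a correction of each library for GC and length, which was added after the data were seen. After the correction 3188 of 15689 features (20.3%) were called higher and 3103 (19.8%) lower. Of the 3383 higher features with a known length, 2266 kept their call and 10 were called lower. Of the 3389 lower ones, 2037 kept theirs and 15 were called higher. For each list the number also called in the same direction against 0.1 µM is given too. Over all features such calls in both comparisons made up 11.5% (higher) and 10.1% (lower), and over the well-expressed ones 16.3% and 10.7%.

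**Figure D1:**
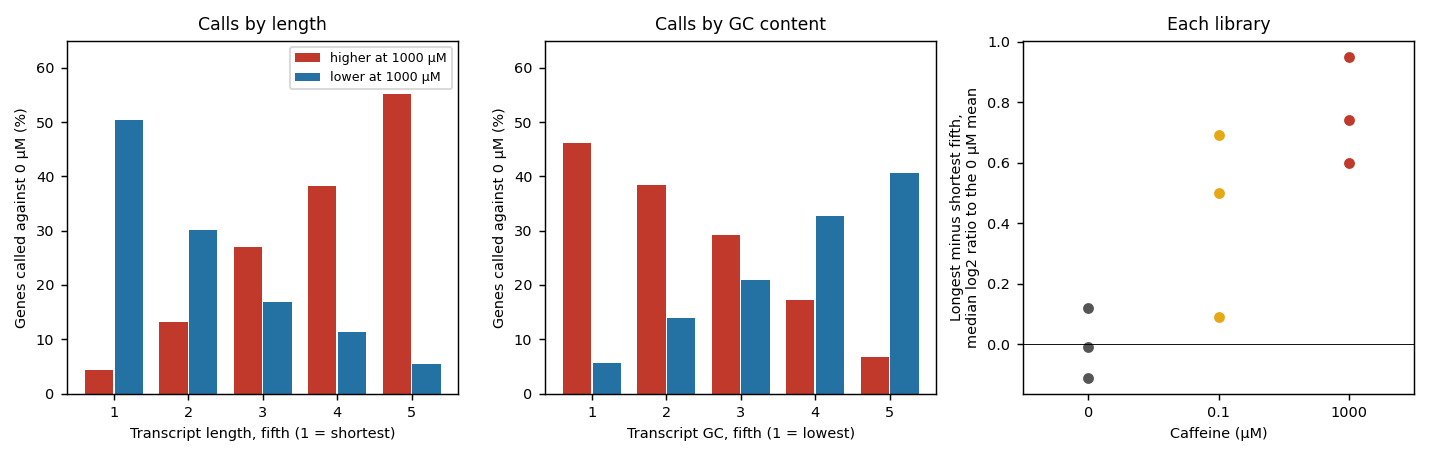
Percentage of well-expressed genes called higher (red) or lower (blue) at 1000 µM against 0 µM, in 5 classes of transcript length (left) and of GC content (middle), and the median log2 ratio to the 0 µM mean of the longest minus the shortest class in each library (right). Calls pass from 50.4% lower in the shortest class to 55.2% higher in the longest, and 2 of the 3 libraries at 0.1 µM lie near those at 1000 µM.

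The largest rises among well-expressed genes were in regulators of cell death, insulin-like growth factor binding, RAS signalling and the matrix. The mean of 10 CPM is taken over both groups. A gene below 10 CPM at 0 µM, such as BMF, can therefore pass only through its level at 1000 µM. BMF, a BH3-only protein that promotes mitochondrial cell death, was at 5.22, 5.28 and 5.74 CPM at 0 µM, 5.68, 6.71 and 6.0 CPM at 0.1 µM, then 52.3, 46.2 and 47.2 CPM at 1000 µM. The 1000 µM libraries stood far above both other groups, which overlapped, and the log2 fold change against 0 µM was 3.16 ± 0.11 (SE, adjusted p 7e-13). The gene (ENSG00000104081.14) lies at chr15:40087890-40108892 on the minus strand of GRCh38. IGFBP1, a liver-secreted binding protein of insulin-like growth factors, went from 51.3, 39.0 and 40.0 CPM to 294.1, 305.7 and 299.8 CPM, a log2 fold change of 2.79 ± 0.17 (adjusted p 4.6e-09). At 0.1 µM it was at 42.3, 34.4 and 46.6 CPM, which overlapped the controls. ERRFI1, a feedback inhibitor of the EGF receptor and the most abundant of the 15 largest rises, went from 330.3, 317.0 and 342.0 CPM to 1197.7, 1274.1 and 1347.6 CPM (log2 1.95 ± 0.09).

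Further rises in this group were SOS1, an exchange factor that loads RAS with GTP (2.35 ± 0.18), and SPRY4, a feedback inhibitor of receptor kinases (1.99 ± 0.15). CEMIP, which takes part in hyaluronan breakdown, rose by 2.51 ± 0.11, but its level at 0.1 µM, 83.9, 90.6 and 68.0 CPM, was already above the 47.5 to 55.7 CPM of the controls. FST, which binds activins (2.08 ± 0.17), and SKIL, a repressor of SMAD signalling (2.04 ± 0.23), rose together with TBX3, a T-box factor (1.91 ± 0.13). CYP24A1, which inactivates vitamin D, rose by 2.11 ± 0.08, SLC16A6, a monocarboxylate carrier, by 2.08 ± 0.10, and AKR1B15, an aldo-keto reductase, by 2.05 ± 0.38. Reads of AKR1B15 can be shared with close paralogs. LINC01484, a noncoding RNA, rose by 2.83 ± 0.18. DNAAF4-CCPG1, listed by the rule with 2.35 ± 0.40, is a readthrough of neighbouring genes whose exons it shares, so its counts are uncertain. After the GC and length correction all 15 were still called, with SOS1 at 1.81, SKIL at 1.52 and BMF at 3.11.

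The largest falls were in short genes, with transcripts of 511 to 2651 bases (1653 to 8517 for the rises), several of them of mitochondria, transcription and the ER. SDF2L1, an ER chaperone partner, was at 57.4, 54.2 and 40.3 CPM at 0 µM and 13.9, 16.6 and 11.5 CPM at 1000 µM (log2 -1.85 ± 0.22, adjusted p 7.1e-06), and at 36.9, 29.7 and 45.8 CPM at 0.1 µM. The groups at 0 and 1000 µM did not overlap, while the 0.1 µM libraries lay between them or within the controls. NUDT8, a mitochondrial hydrolase, fell by 1.95 ± 0.23, MICOS13, a protein of the mitochondrial cristae, fell by 1.74 ± 0.20, and NDUFAF8, an assembly factor of respiratory complex I, fell by 1.65 ± 0.26. POLR2L, a small subunit shared by the nuclear RNA polymerases, went from 103.0, 141.8 and 69.7 CPM to 31.1, 44.8 and 23.4 CPM (-1.66 ± 0.25). LEAP2, a liver peptide hormone that opposes ghrelin, went from 52.7, 52.2 and 33.5 CPM to 11.9, 19.3 and 14.5 CPM (-1.60 ± 0.22). MAB21L4 (-1.86 ± 0.12), CCDC85B (-1.83 ± 0.27), HEPN1 (-1.77 ± 0.35), TMEM256 (-1.76 ± 0.28), LIME1 (-1.72 ± 0.27), TMA7 (-1.68 ± 0.26), SAC3D1 (-1.67 ± 0.16) and SLC16A13, a monocarboxylate carrier (-1.60 ± 0.15), complete the set apart from ZACN. ZACN was at 49.5, 33.7 and 16.7 CPM at 0 µM and 0.293, 0.197 and 0.285 CPM at 1000 µM, but also at 0.149 and 0.193 CPM in 2 libraries at 0.1 µM and 18.4 CPM in the other, and its exons overlap another gene, so it is uncertain. All 15 were still called lower after the correction, but the falls were smaller: SDF2L1 stood at -0.95, MICOS13 at -0.84 and NDUFAF8 at -0.86. Replicate 3 was the lowest control in 14 of the 15.

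**Figure D2:**
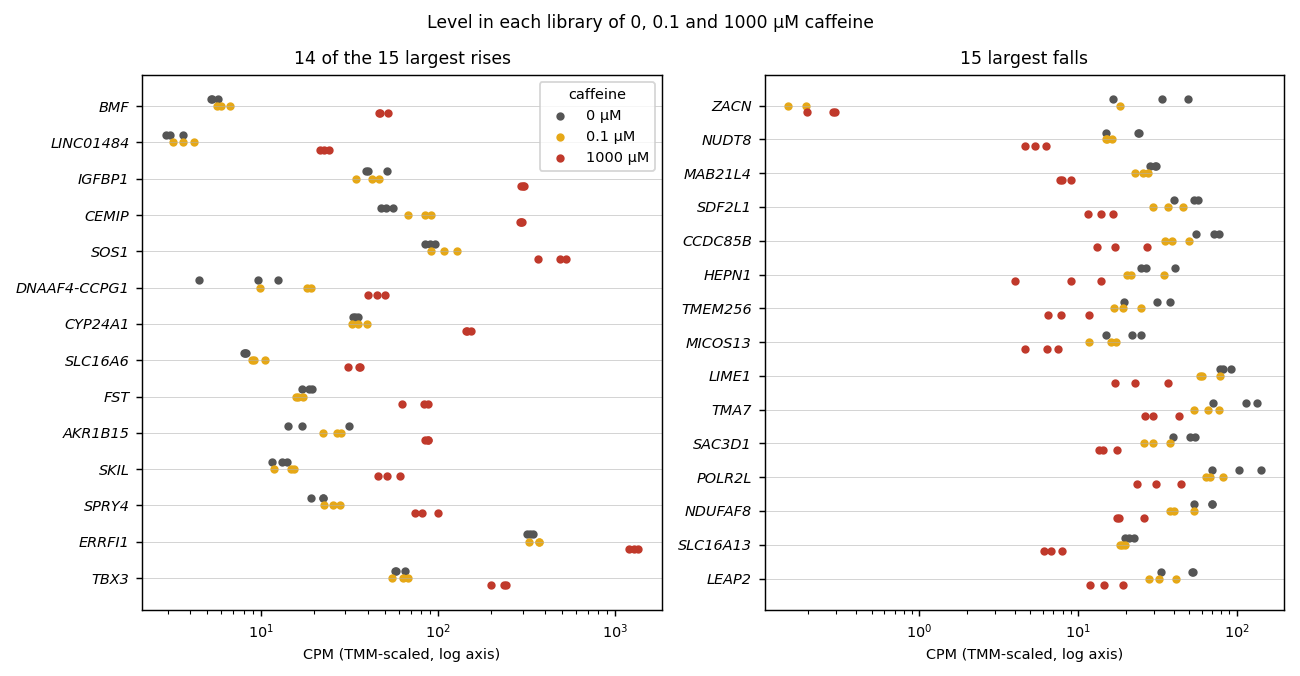
Level in each library (CPM after TMM scaling, log axis) of 14 of the 15 largest rises (left) and 15 largest falls (right) at 0, 0.1 and 1000 µM caffeine, 1 point per library. For BMF the 3 libraries at 1000 µM sit between 46.2 and 52.3 CPM, far above 5.22 to 5.74 CPM at 0 µM, while for many falls the 0.1 µM libraries lie between the other groups.

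Genes of bone morphogenetic protein (BMP) signalling, in which receptors phosphorylate SMAD factors that raise the ID genes and, in liver, the iron hormone hepcidin, were the list with the highest median rise among those drawn in the plot of list members. Of 17 tested members 12 were called higher (70.6%), all 12 also against 0.1 µM, and 1 lower, with a median log2 fold change of 0.84, and -0.03 over all features tested. The median against 0.1 µM was 0.93. After the correction 14 were higher and 0 lower, with a median of 0.99. ID1, an inhibitor of helix-loop-helix factors, was at 491.7, 416.1 and 434.8 CPM at 0 µM and 891.9, 890.8 and 767.8 CPM at 1000 µM (0.93 ± 0.18, adjusted p 0.00063). BAMBI, a decoy receptor, went from 34.6, 31.9 and 33.0 CPM to 67.9, 80.1 and 75.0 CPM (1.16 ± 0.10). For neither gene did the groups overlap, as naming by rule required. SMAD7, an inhibitory SMAD, rose by 1.07 ± 0.12, and BMPR2, a type II receptor, by 1.07 ± 0.14. Outside the rule, and chosen after their values were seen, are HAMP, which encodes hepcidin, at 0.636, 0.869 and 0.766 CPM against 5.75, 4.78 and 3.04 CPM (2.57 ± 0.24), and ATOH8, a helix-loop-helix factor of this pathway, with 4.45 ± 0.31 from 0.268, 0.451 and 0.447 CPM. The ligand BMP4 did not pass as measured (0.15 ± 0.11, adjusted p 0.3) and stood at 0.50 after the correction.

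The 6-base GGCGCC core, which SMAD1 and SMAD5 can bind, was searched on either strand in the 250 bases before the RefSeq start (GRCh38.p14) of well-expressed and listed genes. It occurred in 4 of 14 windows of the BMP list and in 27.3% of all 7647 windows, so its presence is common. The windows are shown because BAMBI holds 3 copies next to each other. Capitals mark the core, and 18 bases are given on each side where the window allows.
BAMBI, chr10:28677294-28677363, plus strand: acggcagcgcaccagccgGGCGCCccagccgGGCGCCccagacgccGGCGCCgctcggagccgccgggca
HAMP, chr19:35282405-35282446, plus strand: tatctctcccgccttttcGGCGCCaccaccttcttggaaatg
BMPR2, chr2:202376162-202376203, plus strand: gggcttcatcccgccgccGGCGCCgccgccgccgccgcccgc
BMP4, chr14:53955259-53955300, minus strand: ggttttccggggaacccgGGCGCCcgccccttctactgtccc
Of these genes, BAMBI, HAMP and BMPR2 were called higher and BMP4 was not.

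Genes raised by beta-catenin and TCF factors also had more members higher than the background. Of 21 tested 11 were higher (52.4%), 10 of them also against 0.1 µM, and 0 lower, with a median of 0.35 against 0 µM and 0.34 against 0.1 µM, and after the correction 13 were higher and 0 lower. NKD1, a feedback inhibitor of WNT signalling, was at 162.0, 175.4 and 172.9 CPM at 0 µM and 652.4, 454.0 and 515.9 CPM at 1000 µM (1.67 ± 0.16, adjusted p 9.2e-07). LGR5, an R-spondin receptor, went from 59.1, 64.9 and 75.2 CPM to 118.2, 134.2 and 145.3 CPM (1.00 ± 0.13), and MYC, a transcription factor of cell growth, rose by 0.65 ± 0.18. The groups did not overlap for any of these genes, but naming by rule requires that. The secreted inhibitor DKK1 (-0.09 ± 0.15) and the ubiquitin ligase ZNRF3 (0.11 ± 0.09), both common WNT targets, did not pass.

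Immediate early and feedback genes of growth factor signalling were higher in 16 of 32 tested members (50%), 13 of them also against 0.1 µM, and lower in 2, with a median of 0.42, and higher in 19 and lower in 3 after the correction. SPRED1 rose by 0.97 ± 0.18 and SPRED2 by 0.83 ± 0.14; both restrain RAS and RAF. KLF10, a zinc finger repressor, went from 18.3, 17.3 and 19.8 CPM to 56.5, 44.0 and 51.3 CPM (1.45 ± 0.17), and DUSP6, a phosphatase of the MAP kinase ERK, rose by 0.50 ± 0.07. FOS (-0.18 ± 0.24), JUN (0.07 ± 0.17) and EGR1 (0.18 ± 0.27), the classic early factors, did not pass. The 2 lower members, named after their values were seen, were the factors KLF2 (-1.79 ± 0.42) and JUND (-1.13 ± 0.32). KLF2 had a mean below 10 CPM.

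Genes of the antioxidant programme of NRF2, a bZIP factor (encoded by NFE2L2) that pairs with small MAF proteins at antioxidant elements, were higher in 13 of 27 tested members (48.1%) and lower in 4 (14.8%), with a median of 0.31. Against 0.1 µM as well, 12 were higher and 1 lower, and after the correction 17 were higher and 1 lower. TXNRD1, thioredoxin reductase, was at 189.7, 176.7 and 172.1 CPM at 0 µM and 499.8, 678.1 and 575.5 CPM at 1000 µM (1.70 ± 0.16, adjusted p 4.8e-07). GCLM, the regulatory subunit of the enzyme that starts glutathione synthesis, went from 30.8, 30.5 and 30.3 CPM to 74.9, 103.1 and 106.7 CPM (1.64 ± 0.16), and SLC7A11, the cystine importer, from 27.4, 28.3 and 28.7 CPM to 74.7, 94.6 and 97.3 CPM (1.66 ± 0.22). In none of these did the groups overlap, as naming by rule required. OSGIN1, an oxidative stress growth inhibitor, rose by 1.51 ± 0.12. Among the factors, NFE2L2 rose by 0.92 ± 0.09, its partner MAFG by 1.20 ± 0.07 and BACH1, which competes with it, by 0.97 ± 0.19.

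Other members behaved differently. HMOX1, haem oxygenase and a strong NRF2 target, was at 103.0, 98.6 and 96.9 CPM and 118.3, 114.9 and 111.4 CPM and did not pass (0.21 ± 0.10, adjusted p 0.11), though it was called after the correction (0.57). FTL, the light chain of ferritin, fell by 0.75 ± 0.11 and FTH1, the heavy chain, fell by 0.49 ± 0.13, and neither was called after the correction (-0.14 for each). The antioxidant element, TGAC and GCA with any 3 bases between, searched on either strand, occurred in 1 of 19 windows of this list and in 2.21% of all windows. The window of GCLM is shown because it was the member with a match, and capitals mark the fixed bases of the element in reverse orientation.
GCLM, chr1:93909438-93909483, minus strand: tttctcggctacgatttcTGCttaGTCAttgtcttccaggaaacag

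Genes under ATF4, the factor of the integrated stress response that controls amino acid supply, were higher in 17 of 33 tested members (51.5%) and lower in 3 (9.09%), with a median of 0.46 against 0 µM and 0.47 against 0.1 µM. In both comparisons 16 were higher and 1 lower. After the correction 21 were higher and 1 lower. SLC38A2, a neutral amino acid carrier, was at 302.2, 297.2 and 311.8 CPM at 0 µM and 648.9, 836.4 and 911.1 CPM at 1000 µM (1.40 ± 0.18, adjusted p 1.8e-05). NUPR1, a small stress protein of chromatin, rose by 0.95 ± 0.23 and STC2, a secreted glycoprotein, by 0.81 ± 0.08. ATF4 itself, chosen after its values were seen, went from 627.5, 619.9 and 545.2 CPM to 868.2, 1158.9 and 847.9 CPM (0.68 ± 0.13). The groups did not overlap for SLC38A2, as naming by rule required, or for ATF4. By contrast DDIT3, which encodes CHOP, was at 9.17, 9.11 and 8.81 CPM and 5.34, 7.07 and 5.61 CPM (-0.59 ± 0.13), and TRIB3, a pseudokinase, fell by 0.31 ± 0.11. Neither was called after the correction (-0.09 and 0.01).

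Aminoacyl-tRNA synthetases, several of which are ATF4 targets, were higher in 6 of 20 (30%) and lower in 2, in 5 and 1 against 0.1 µM as well, and in 7 and 3 after the correction. All 20 were well expressed, and the share higher was near the 27.5% over all well-expressed features. The list median was 0.05. GARS1 rose by 0.48 ± 0.09, MARS1 by 0.43 ± 0.11, CARS1 by 0.36 ± 0.09 and TARS1 by 0.33 ± 0.07, while the largest change of the list was a fall, that of FARSA (-0.59). The composite element of ATF4 and C/EBP factors, TGATGNAA, occurred in 3 of 27 windows of the ATF4 list and in 1.27% of all windows, and over all windows with it 26 genes were higher and 25 lower. The 3 windows are shown because each belongs to a gene that was called higher, and capitals mark the fixed bases.
ASNS, chr7:97872451-97872494, minus strand: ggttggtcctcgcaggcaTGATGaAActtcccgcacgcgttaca
CHAC1, chr15:40953244-40953287, plus strand: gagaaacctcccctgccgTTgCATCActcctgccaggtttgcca
ATF3, chr1:212565198-212565241, plus strand: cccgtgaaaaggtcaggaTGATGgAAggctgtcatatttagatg
ASNS, asparagine synthetase, rose by 0.46 ± 0.10, CHAC1, which degrades glutathione, by 1.44 ± 0.22, and the factor ATF3 by 0.54 ± 0.20. CHAC1 and ATF3 were below 10 CPM.

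ER chaperones are raised by XBP1 and ATF6 when unfolded protein accumulates. Of 26 tested 5 were higher (19.2%) and 7 lower (26.9%), with a median of -0.18, and 2 were higher and 6 lower in both comparisons. After the correction 3 were higher and 12 lower (46.2%). MANF, a secreted ER stress protein, was at 119.9, 113.8 and 98.1 CPM at 0 µM and 51, 53.8 and 44.2 CPM at 1000 µM (-1.15 ± 0.13, adjusted p 2.5e-06), and -0.80 after the correction. CRELD2, an ER disulfide isomerase, went from 64.5, 64.4 and 56.9 CPM to 27.8, 29.8 and 25.9 CPM (-1.15 ± 0.14). ERN1, the sensor IRE1 of the same pathway, rose by 0.84 ± 0.13. The ER stress response element, CCAAT and CCACG with any 9 bases between, on either strand, was added after the data were seen and occurred in 6 of 24 windows of this list and in 0.144% (11) of all windows. The 6 windows are shown because their genes moved unequally. Capitals mark the fixed bases, and in the last 3 the element runs in reverse.
HSPA5, chr9:125241373-125241427, minus strand: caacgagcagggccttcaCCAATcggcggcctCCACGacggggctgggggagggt
XBP1, chr22:28800585-28800639, minus strand: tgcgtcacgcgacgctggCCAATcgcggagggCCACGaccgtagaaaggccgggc
CANX, chr5:179698760-179698814, plus strand: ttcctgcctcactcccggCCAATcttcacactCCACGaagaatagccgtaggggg
HSP90B1, chr12:103930303-103930357, plus strand: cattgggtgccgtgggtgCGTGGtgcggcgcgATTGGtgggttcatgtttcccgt
CALR, chr19:12938366-12938420, plus strand: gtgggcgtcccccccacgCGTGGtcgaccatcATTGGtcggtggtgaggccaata
CRELD2, chr22:49918536-49918590, plus strand: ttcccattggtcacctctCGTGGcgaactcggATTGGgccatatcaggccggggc
With CRELD2, HSPA5, the main ER chaperone BiP, was lower, from 1678.1, 1438.0 and 1631.0 CPM to 1262.3, 1268.7 and 1229.0 CPM (-0.34 ± 0.08), as was XBP1 (-0.55 ± 0.09). CANX, a membrane lectin chaperone, was higher (0.28 ± 0.09; 0.07 and not called after the correction). HSP90B1 (0.02 ± 0.08) and CALR (-0.32 ± 0.16, adjusted p 0.12) did not pass.

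Targets of HSF1, the factor of cytosolic heat shock, were lower in 8 of 22 (36.4%) and higher in 3 (13.6%), with a median of -0.15, lower in 3 and higher in 3 in both comparisons, and lower in 5 and higher in 3 after the correction. Without 0 µM replicate 1 the number lower was 5. DNAJB4, a co-chaperone, rose by 1.41 ± 0.14. HSPA8, the constitutive HSC70, fell from 2415.9, 2583.1 and 2866.1 CPM to 2001.6, 2229.3 and 2034.8 CPM (-0.33 ± 0.08), and HSPA4L, a nucleotide exchange factor, fell by 0.53 ± 0.10. CHORDC1, a partner of HSP90, was called higher (0.40 ± 0.11) but stood at -0.0007 after the correction.

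Hypoxia-inducible genes were higher in 13 of 28 (46.4%) and lower in 6 (21.4%), with a median of 0.25, higher in 12 and lower in 2 in both comparisons, and higher in 9 and lower in 2 after the correction. SLC2A1, the glucose carrier GLUT1, was at 415.1, 419.6 and 380.5 CPM at 0 µM and 863.4, 933.9 and 853.3 CPM at 1000 µM (1.13 ± 0.10, adjusted p 2.7e-07). PFKFB3, which makes the activator of phosphofructokinase, rose by 1.43 ± 0.13, the histone demethylase KDM3A by 1.00 ± 0.10 and NDRG1, a stress-inducible gene, by 0.93 ± 0.13. The oxygen-regulated factors HIF1A (0.93 ± 0.16) and EPAS1 (0.89 ± 0.11) also rose. The enzymes of glycolysis as a list went the other way, with 2 of 21 higher (9.52%; these are PFKFB3 and SLC2A1) and 8 lower (38.1%), 2 and 4 in both comparisons, and 4 higher and 5 lower after the correction.

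Targets of FOXO factors, which are active when insulin signalling is low, were higher in 10 of 20 (50%) and lower in 2 (10%), with a median of 0.31, and 8 were higher and 1 lower in both comparisons. After the correction 11 were higher and 4 lower. With IGFBP1 above, FOXO1 itself went from 15.1, 13.5 and 16.0 CPM to 31.1, 22.2 and 29.6 CPM (0.89 ± 0.18, adjusted p 0.00072), and BCL6, a repressor, rose by 0.81 ± 0.19. BCL2L11, which encodes the death protein BIM, went from 19.7, 19 and 22.9 CPM to 37.1, 31.6 and 37.2 CPM (0.78 ± 0.09). The groups did not overlap for FOXO1 or BCL2L11, as naming by rule required. The forkhead site TGTTTAC, on either strand, occurred in 2 of 17 windows and in 1.95% of all windows. Both windows are shown because both genes were called higher, with capitals on the site in reverse orientation.
BCL2L11, chr2:111120673-111120715, plus strand: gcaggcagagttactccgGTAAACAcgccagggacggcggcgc
TXNIP, chr1:145996679-145996721, minus strand: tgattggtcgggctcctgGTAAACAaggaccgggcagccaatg
TXNIP, an inhibitor of thioredoxin, was higher by 0.29 ± 0.09 against 0 µM, its libraries overlapped with the controls, and it was not called against 0.1 µM (0.03).

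Within the BCL2 family of cell death regulators, 5 of 16 members were higher and 5 lower, 5 and 3 in both comparisons, and 5 and 3 after the correction. Beside BMF and BCL2L11, BAD, another BH3-only protein, fell by 0.92 ± 0.17 and BCL2L12 fell by 0.83 ± 0.12, and after the correction BAD stood at -0.04 and was not called. Lysosome and autophagy genes were higher in 11 of 40 (27.5%), the same share as over all well-expressed features, and lower in 1 (2.5%), with a median of 0.06. In both comparisons 6 were higher and 1 lower, and after the correction 13 were higher and 6 lower (15%). GABARAPL1, an autophagosome membrane protein, was at 11.9, 10.5 and 11.3 CPM at 0 µM and 31.2, 42.8 and 37.1 CPM at 1000 µM (1.72 ± 0.11, adjusted p 6.6e-09). ULK1, the kinase that starts autophagy, went from 16.7, 19.3 and 18.6 CPM to 60.2, 39.1 and 44.5 CPM (1.40 ± 0.17). SQSTM1, the cargo receptor p62, rose by 0.79 ± 0.12 and WIPI1 by 0.63 ± 0.09. All 4 were called after the correction. Their separation from the controls in every library was a condition of naming by rule.

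Genes that cyclic AMP raises through CREB were higher in 6 of 17 (35.3%) and lower in 1, with a median of 0.28, in 4 and 1 in both comparisons, and higher in 9 and lower in 2 after the correction. Of the 12 well-expressed members 3 were higher, a share below the 27.5% over all well-expressed features, and 1 was higher in both comparisons. PPARGC1A, a coactivator of gluconeogenesis, went from 6.69, 7.69 and 7.69 CPM to 15.4, 13 and 18.6 CPM (1.09 ± 0.17), while PER1, a clock gene with CREB sites, fell by 0.43 ± 0.16. CREM (-0.08 ± 0.10), PCK1 (0.28 ± 0.12, adjusted p 0.069) and FOS (-0.18 ± 0.24) did not pass. Of 14 phosphodiesterases, the enzymes that methylxanthines inhibit, 2 were higher and 2 lower, 1 and 2 in both comparisons, among them PDE8A (0.69 ± 0.08). After the correction 1 was higher and 5 lower. Of 18 genes of ER calcium release and uptake 4 were higher and 3 lower, 2 and 1 in both comparisons, and 5 and 5 after the correction. ITPR1, an ER calcium channel, rose from 17.1, 19.6 and 22.7 CPM to 55.1, 51.7 and 51.9 CPM (1.42 ± 0.16), the store sensor STIM2 rose by 0.85 ± 0.12 and the plasma membrane channel ORAI3 fell by 0.75 ± 0.10.

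**Figure D3:**
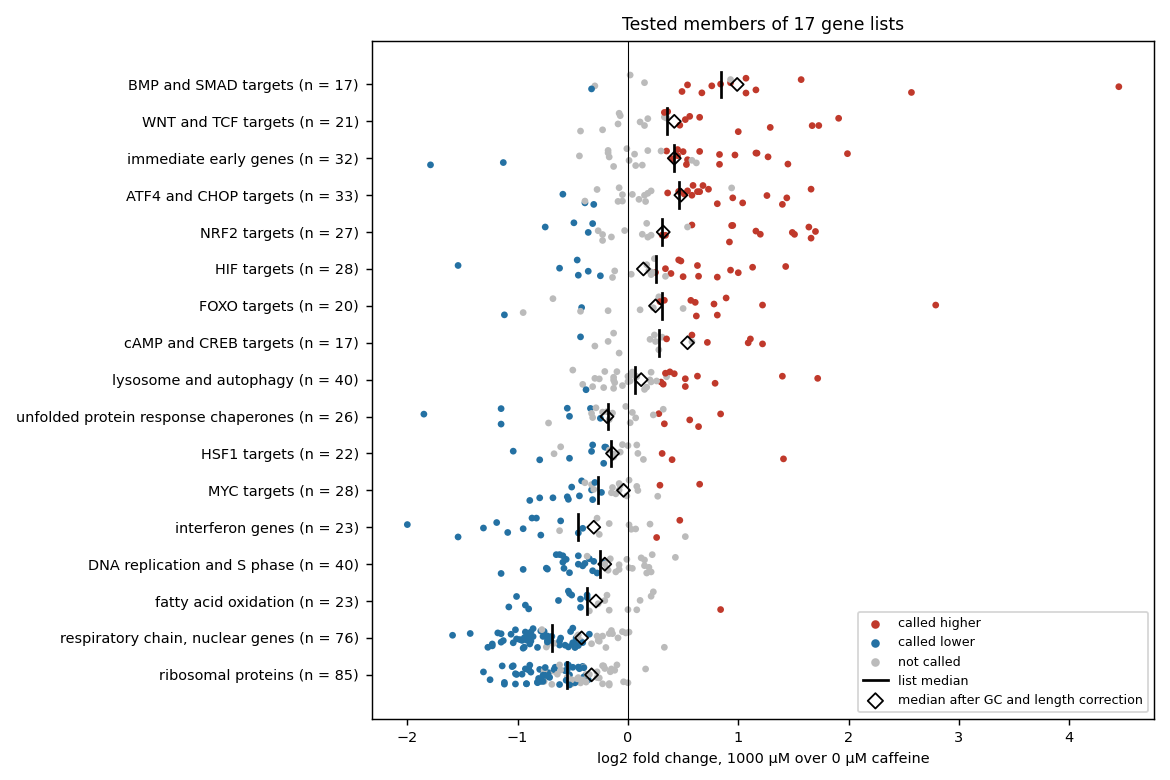
Log2 fold change at 1000 µM against 0 µM of each tested member of 17 gene lists (1 point per gene; red called higher, blue called lower, grey not called), with the list median as measured (bar) and after the GC and length correction (diamond). BMP and SMAD targets have the highest median (0.84) and nuclear respiratory chain genes the lowest (-0.69, and -0.42 after the correction).

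Transcription factors as a class were more often higher than lower. Of 218 tested members of 10 families, 91 were called higher and 23 lower, and 90 and 20 after the correction, while over all features tested the shares in each direction were equal at 20.6%. ETS factors, many of which are end points of MAP kinase signalling, were higher in 12 of 16 (75%) and lower in 1, in 10 and 0 in both comparisons, and in 10 and 0 after the correction. ETS2 went from 86.5, 87.3 and 87.2 CPM to 136.3, 133.5 and 140.5 CPM (0.65 ± 0.07, adjusted p 1.7e-06), with ELK3 at 0.91 ± 0.17, ELF1 at 0.66 ± 0.13 and ELF2 at 0.64 ± 0.12. The SMAD, TEAD and TCF group was higher in 11 of 17 (64.7%) and lower in 0, in 9 in both comparisons, and in 10 and 0 after the correction. SMAD1, which carries BMP signals, rose by 0.89 ± 0.11, SMAD3, which carries TGF-beta signals, by 0.66 ± 0.08, and YAP1, the coactivator of TEAD factors, by 0.83 ± 0.17. The KLF and SP family was higher in 10 of 17 (58.8%) and lower in 2, in 7 and 0 in both comparisons, and in 9 and 3 after the correction, with KLF11 at 0.94 ± 0.12, KLF13 at 0.68 ± 0.08 and SP3 at 0.66 ± 0.13.

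Among nuclear receptors, 9 of 30 were higher (30%) and 3 lower (10%), 7 and 2 in both comparisons, and 10 and 4 after the correction. NR3C1, the glucocorticoid receptor, was at 21.7, 20.3 and 22.4 CPM at 0 µM and 51.4, 50.2 and 53.9 CPM at 1000 µM (1.27 ± 0.15, adjusted p 6.9e-06), and HNF4G, a paralog of the hepatocyte factor HNF4A, went from 9.63, 9.63 and 10.9 CPM to 21.4, 23.8 and 27.5 CPM (1.27 ± 0.15). After the correction NR3C1 stood at 0.83 and HNF4G at 0.96. NR5A1, the steroidogenic factor SF-1, fell by 0.88 ± 0.13. Forkhead factors were higher in 10 of 21 (47.6%), as after the correction, and in 8 in both comparisons, and lower in 1, FOXH1, a partner of SMAD factors (-0.81 ± 0.15). FOXJ1, a factor of ciliated cells, was higher in every library (0.95 ± 0.25), with 138.3 CPM in replicate 1 and 84.9 and 89.4 CPM in the other libraries at 1000 µM. Of the bZIP factors 16 of 44 were higher and 10 lower, 13 and 5 in both comparisons, and 18 and 5 after the correction. Of the helix-loop-helix factors 16 of 40 were higher and 4 lower, 15 and 3 in both comparisons, and 16 and 5 after the correction. Besides NR5A1 and FOXH1, the well-expressed members of the families as listed that fell in both comparisons were HES6 (-1.48 ± 0.17), MXD3, an antagonist of MYC (-0.78 ± 0.20), SREBF1, which drives lipid synthesis (-0.70 ± 0.15), and XBP1. The nuclear receptor gene NR1H4, given below, also fell against 0 µM but is not among the 30 receptors counted here.

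**Figure D4:**
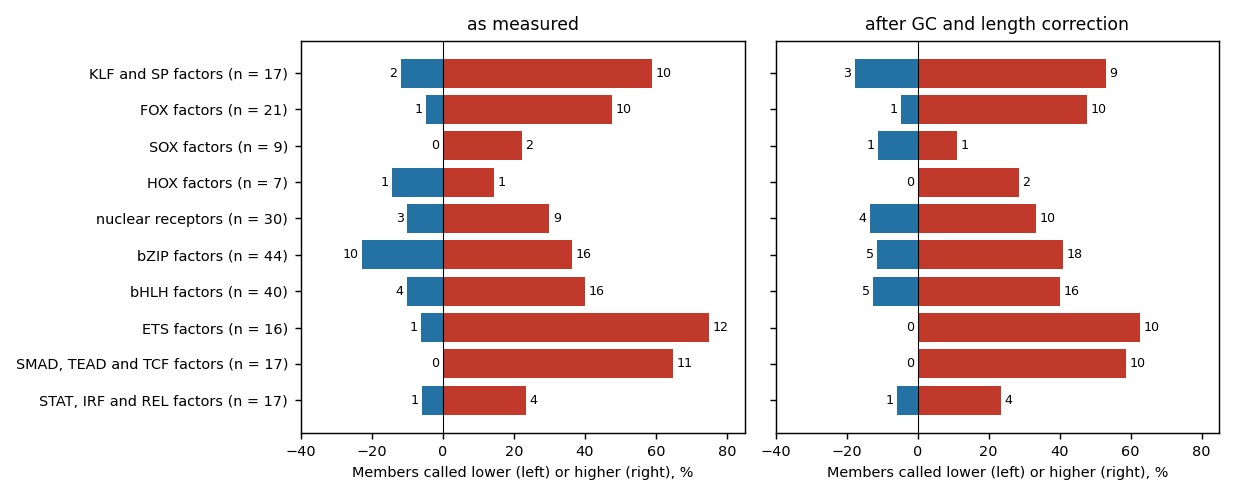
Percentage of tested members of 10 transcription factor families called higher (right, red) or lower (left, blue) at 1000 µM against 0 µM, as measured (left panel) and after the GC and length correction (right panel), with the number of genes beside each bar. ETS factors have the highest share, 75% as measured and 62.5% after the correction.

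Ribosomal protein genes, mitochondrial ribosomal protein genes and nuclear respiratory chain genes had more members lower than higher. Fewer of these were also called against 0.1 µM. Translation initiation factors were more even, with 12 of 52 higher and 13 lower, 10 and 4 in both comparisons, and 9 and 16 after the correction. Of 85 ribosomal protein genes 49 were called lower (57.6%) and 0 higher, with a median of -0.55 against 0 µM and -0.29 against 0.1 µM. The number lower in both comparisons was 10 of 85, near the 10.1% over all features. RPLP2, of the ribosomal stalk, was at 570.8, 629.0 and 397.9 CPM at 0 µM and 240.8, 254.3 and 178.2 CPM at 1000 µM (-1.25 ± 0.17, adjusted p 3.3e-05), RPL24 fell by 1.12 ± 0.19 and RPL35A fell by 1.02 ± 0.18. RPL3, another subunit, was at 2570.6, 2447.1 and 2000.7 CPM and 1657.1, 2463.1 and 1868.9 CPM and did not pass (-0.23 ± 0.19). Processed pseudogenes can take part of their reads. After the correction 31 of 85 (36.5%) were lower and 1 higher, with a median of -0.33, and 9 were lower in both comparisons, with a median of -0.12 against 0.1 µM.

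Mitochondrial ribosomal proteins were lower in 52 of 77 (67.5%) and higher in 0, with a median of -0.53, lower in 26 in both comparisons, and lower in 41 (53.2%) and higher in 5 after the correction. MRPL41 fell by 1.30 ± 0.19, MRPL55 fell by 1.23 ± 0.15 and MRPL52 fell by 1.16 ± 0.20. Nuclear genes of the respiratory chain were lower in 52 of 76 (68.4%) and higher in 0, with a median of -0.69 against 0 µM and -0.36 against 0.1 µM, lower in 19 in both comparisons, and lower in 37 (48.7%) and higher in 0 after the correction. ATP5F1D, a subunit of the ATP synthase, was at 101.7, 95.4 and 73.4 CPM at 0 µM, 57.3, 51.7 and 75.3 CPM at 0.1 µM, then 36.7, 31.8 and 21.1 CPM at 1000 µM (-1.59 ± 0.22, adjusted p 2.5e-05). UQCR10, of complex III, fell by 1.15 ± 0.19 and the ATP synthase gene ATP5F1E fell by 1.18 ± 0.23 and its partner ATP5MC1 fell by 1.13 ± 0.24. The 13 protein genes of the mitochondrial genome had a median of 0.06, with 1 lower and 0 higher, and 0.48 after the correction, with 0 lower and 1 higher. In bulk RNA, fewer cells with a programme and less of its RNA per cell cannot be told apart.

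Proteasome subunits were lower in 17 of 36 (47.2%) and higher in 1, but with 1 library left out the number lower was 10 without 0 µM replicate 1, 11 without 0 µM replicate 2, 10 without 1000 µM replicate 1 and 9 without 1000 µM replicate 3. The number lower in both comparisons was 2, a share below the 10.1% over all features, and the median was -0.33 against 0 µM and -0.17 against 0.1 µM. After the correction 16 were lower and 2 higher, with 3 lower in both comparisons. PSMB10, of the immunoproteasome, fell by 1.09 ± 0.16. MYC targets were lower in 12 of 28 (42.9%) and higher in 2, lower in 4 in both comparisons, and lower in 6 after the correction. MYC itself is a member of this list and had its highest log2 fold change (0.65). The number lower was 7 without 0 µM replicate 1 and 7 without 1000 µM replicate 3. CDK4, a cell cycle kinase, fell by 0.80 ± 0.15.

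DNA replication genes were lower in 20 of 40 (50%) and higher in 0, with a median of -0.25, lower in 13 in both comparisons, and after the correction lower in 20 and higher in 2. POLA2, of the polymerase that primes replication, was at 22.2, 23.0 and 20.8 CPM at 0 µM, 18.2, 19.8 and 20.6 CPM at 0.1 µM, then 12.1, 9.53 and 8.08 CPM at 1000 µM (-1.15 ± 0.12, adjusted p 1.3e-06; -1.10 after the correction). TK1, thymidine kinase, fell by 0.95 ± 0.11, GINS4, of the replicative helicase, fell by 0.74 ± 0.18, RFC2, of the clamp loader, fell by 0.73 ± 0.11, and CDC6, a licensing factor, fell by 0.59 ± 0.09. E2F1, the factor of the S phase programme, fell by 0.45 ± 0.09 but stood at -0.06 after the correction and was not called. The E2F site TTTCGCGC, on either strand, occurred in 3 of 35 windows of this list and in 0.915% of all windows. The 3 windows are shown because they set the gene with the largest fall in the list beside a pair that did not pass, and capitals mark the site.
POLA2, chr11:65261891-65261934, plus strand: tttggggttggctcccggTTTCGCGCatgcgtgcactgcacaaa
MCM6, chr2:135876504-135876547, minus strand: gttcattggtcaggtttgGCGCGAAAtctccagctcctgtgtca
MCM7, chr7:100101398-100101424, minus strand: gtcacgtggggggcgacgTTTCGCGCc
The helicase subunits MCM6 (-0.08 ± 0.12) and MCM7 (-0.22 ± 0.09, adjusted p 0.053) did not pass.

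Of the mitosis genes 13 of 38 were higher (34.2%) and 5 lower (13.2%), 6 and 3 in both comparisons, and 8 and 6 after the correction. The kinetochore motor CENPE rose by 1.00 ± 0.17 and ECT2, an exchange factor of cytokinesis, by 0.76 ± 0.12, while BIRC5, survivin, fell by 0.78 ± 0.13. Calls among DNA repair genes shifted with the correction, from 7 higher and 4 lower of 30 to 1 higher and 12 lower. In both comparisons 0 were higher and 4 lower as measured, and without 0 µM replicate 1 the number higher was 4. ATRIP, the partner of the kinase ATR, was at 20.9, 21.2 and 20.5 CPM at 0 µM, 20.4, 20.5 and 22.2 CPM at 0.1 µM, then 12.7, 14 and 11.3 CPM at 1000 µM (-0.72 ± 0.09, adjusted p 1.8e-05; -0.69 after the correction). FANCD2, of crosslink repair, fell by 0.41 ± 0.10. ATM was higher against 0 µM (0.48 ± 0.17) but not against 0.1 µM (0.09) or after the correction (-0.03), and ATR did not pass against 0 µM (-0.13 ± 0.15) but was lower against 0.1 µM (-0.62) and after the correction (-0.60). Their longest transcripts have 13147 bases (ATM) and 8249 bases (ATR).

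Interferon genes were lower in 12 of 23 (52.2%) and higher in 2, with a median of -0.45 against 0 µM and -0.47 against 0.1 µM, lower in 10 in both comparisons, and lower in 12 and higher in 1 after the correction. Of the 12 well-expressed members 5 were lower and 1 higher, and 4 were lower in both comparisons. Their median was smaller, at -0.22 against 0 µM and -0.29 against 0.1 µM. TAP1, a peptide transporter of antigen presentation, was at 22.5, 22.9 and 19.1 CPM at 0 µM, 19.8, 18.3 and 20.4 CPM at 0.1 µM, then 11.1, 11.4 and 10.7 CPM at 1000 µM (-0.95 ± 0.10, adjusted p 1.6e-06). USP18, which removes ISG15 from proteins, went from 21.1, 19.9 and 19.1 CPM to 12, 11.3 and 11.6 CPM (-0.79 ± 0.09). For both, the 1000 µM libraries lay below every library of the other groups. ISG15 itself fell by 1.31 ± 0.25 and IFITM3, a membrane protein that restricts viruses, fell by 0.83 ± 0.17, and IFITM3 was not called after the correction (-0.20).

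Lists of lipid and bile acid metabolism had more members lower than higher against 0 µM. Fatty acid oxidation had 12 of 23 lower (52.2%) and 1 higher, with a median of -0.37, 9 lower in both comparisons, and 9 lower and 3 higher after the correction. FABP1, the liver fatty acid binding protein, went from 178.0, 186.6 and 143.3 CPM to 77.2, 101.8 and 72.4 CPM (-1.01 ± 0.16, adjusted p 0.00011), and ECHS1, an oxidation enzyme, fell by 1.08 ± 0.21 but was not called after the correction (-0.53). Fatty acid and triglyceride synthesis had 7 of 20 lower (35%) and 3 higher, 5 and 2 in both comparisons, and 11 lower (55%) and 4 higher after the correction. GPAM, the first enzyme of triglyceride assembly, rose from 296.1, 283.4 and 316.6 CPM to 733.8, 831.3 and 830.0 CPM (1.42 ± 0.12), while PNPLA3, a lipase of lipid droplets, fell by 0.94 ± 0.10, DGAT1, the last enzyme of triglyceride assembly, fell by 0.88 ± 0.13, and FASN, fatty acid synthase, fell by 0.61 ± 0.16. Targets of LXR and FXR, receptors of oxysterols and bile acids, were lower in 12 of 19 (63.2%) and higher in 3, lower in 7 in both comparisons, and lower in 7 and higher in 3 after the correction. NR1H4, which encodes FXR, went from 14.9, 13 and 14.1 CPM to 6.63, 8.47 and 7.04 CPM (-0.92 ± 0.12; -0.99 after the correction), and SLC27A5, a bile acid CoA ligase, fell by 0.97 ± 0.18. Lipid genes raised by PPARA, a receptor of fatty acids, were lower in 6 of 18 and higher in 4, in 5 and 2 in both comparisons, and lower in 5 and higher in 7 after the correction.

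Calls of hepatocyte secretory genes changed with the correction. Apolipoprotein and lipoprotein genes were lower in 13 of 21 (61.9%) and higher in 2, 10 and 0 in both comparisons, but after the correction 5 were lower and 5 higher. APOA1, of high density lipoprotein, went from 2090.5, 1680.3 and 1447.8 CPM to 882.4, 1016.5 and 642.5 CPM (-1.04 ± 0.21), and APOA2 fell by 0.83 ± 0.16; neither was called after the correction (-0.43 and -0.21). APOB, with a transcript of 14121 bases, was at 5089.2, 5222.0 and 5257.7 CPM at 0 µM, 8028.0, 10313.9 and 6308.6 CPM at 0.1 µM, then 7955.8, 6720.8 and 8269.5 CPM at 1000 µM, so it was higher against 0 µM (0.56 ± 0.18) and not against 0.1 µM (-0.10). ALB, albumin, did not pass (-0.07 ± 0.15). AFP, alpha-fetoprotein, fell by 0.69 ± 0.10 and stood at -0.73 after the correction. KHK, ketohexokinase, fell by 1.04 ± 0.14 and LRG1, a plasma glycoprotein, fell by 0.80 ± 0.10, and both were still called after the correction (-0.72 and -0.66).

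Chromatin modifiers and ZNF genes had more members higher than lower. Chromatin modifiers were higher in 31 of 57 (54.4%), 13 of them also against 0.1 µM, and lower in 4, with a median of 0.43 against 0 µM but 0.12 against 0.1 µM, and higher in 26 and lower in 5 after the correction. ARID2, of a SWI/SNF complex, was at 17.2, 19.5 and 20.2 CPM at 0 µM, 29.2, 36.8 and 22.7 CPM at 0.1 µM, then 55.1, 44.5 and 59.7 CPM at 1000 µM (1.49 ± 0.16), and TET2, a DNA demethylating enzyme, rose by 1.27 ± 0.20. The ZNF genes, mostly zinc finger factors, were higher in 172 of 413 (41.6%) and lower in 31 (7.51%), in 107 and 6 in both comparisons, and in 133 and 45 after the correction. ZNF609 rose by 1.01 ± 0.14 and ZNF84 by 1.01 ± 0.15, while ZNF428 fell by 1.34 ± 0.24. Kinesins were higher in 14 of 33 (42.4%), in 9 without 1000 µM replicate 3, in 4 in both comparisons, near the share over all features, and in 8 after the correction, with KIF3C at 1.13 ± 0.09. Ubiquitin-specific proteases were higher in 21 of 45 (46.7%) and lower in 4, in 7 and 4 in both comparisons, and in 9 and 8 after the correction, with USP12 at 1.41 ± 0.13. Of 452 antisense RNAs 90 were lower (19.9%), a share near the 20.6% over all features, and 43 higher (9.51%), 31 and 27 in both comparisons, and 57 and 61 after the correction. Of the 41 well-expressed ones 8 were lower and 11 higher. The number lower was 59, 56 and 53 without 0 µM replicate 1, 0 µM replicate 2 and 1000 µM replicate 3. Without stated strand counting, reads of an antisense gene and its partner cannot be told apart.

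Claudins and cadherins, which form cell junctions, were lower in 6 of 22 (27.3%) and higher in 3 (13.6%), the same numbers in both comparisons. After the correction 6 were lower and 4 higher. Over all features 20.6% were lower, and 10.1% in both comparisons. Of the 9 well-expressed members of this list 2 were lower and 2 higher. CLDN1 went from 160.2, 177.3 and 170.9 CPM to 87.2, 88.3 and 99.6 CPM (-0.89 ± 0.09, adjusted p 1.4e-06) with 172.4, 178.1 and 159.1 CPM at 0.1 µM, and CLDN19 fell by 0.94 ± 0.11, while CDH2, N-cadherin, rose by 0.71 ± 0.08. All 3 were still called after the correction (-1.08, -0.81 and 0.58). In the acute phase list, 9 of 20 were lower (45%) and 3 higher, 5 and 3 in both comparisons, and after the correction 9 were lower and 9 higher. IL6R, the interleukin-6 receptor, rose from 37.8, 42.4 and 45.5 CPM to 91.4, 81.0 and 88.2 CPM (1.05 ± 0.09) and PIM1, a kinase raised by STAT3, by 0.79 ± 0.15, while SAA4, a serum amyloid protein, fell by 1.06 ± 0.17.

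Annotated exons of 144 of the 290 genes that the naming rule picked overlap those of another gene on either strand, and 50 do so on the same strand, so their counts are uncertain to that extent. Among the genes above, the same-strand overlaps are those of ASNS, ATRIP, BACH1, DDIT3, DGAT1, DNAAF4-CCPG1, DNAJB4, FOXO1, HIF1A, HSP90B1, HSPA8, LIME1, LRG1, MAFG, MARS1, MXD3, NFE2L2, ORAI3, OSGIN1, PER1, PNPLA3, POLA2, PSMB10, RPL3, RPLP2, SAA4, SLC2A1 and TMEM256. BMF, CEMIP, ERRFI1, NKD1, SLC7A11, CRELD2, ITPR1, APOA1 and APOB are among those that overlap a gene of the opposite strand.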

How the data were processed

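The authors deposited 1 table of raw counts, whole-number reads per gene and library, with no normalization. The submitters' processing notes name GRCh38, HISAT2 and DESeq2, while the counting program, annotation and use of strand are not given in the sources used here. Per the labels' protocols, cells took caffeine for 6 h in serum-free DMEM, and RNA was Trizol-purified and selected with poly(dT) beads. The table has 42 library columns; the names of 21 fit the labels and entered the analysis, and the other 21 were not used.

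Counts were scaled by TMM and filtered with edgeR's expression filter (minimum count 10). edgeR 4.0.16 (R 4.3.3, limma 3.58.1) fitted all 21 libraries in 7 dose groups by quasi-likelihood, with 14 residual degrees of freedom and a common biological coefficient of variation of 0.162. P-values were adjusted by Benjamini-Hochberg over 17468 features, threshold 0.05, and an SE is the log2 fold change over the square root of F. CPM are TMM-scaled. A count of 0 allows 3 counts, and depths cover counting error only. Groups were taken from the labels. No replicate pair was close enough to be 1 library deposited again (chi-square per gene 11 to 62.8).

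Members and lists were chosen with earlier results of these data known, so no list was tested and counts are set beside all features. A gene was eligible for naming when called against 0 and 0.1 µM in the same direction, with all 3 libraries on 1 side of the controls and a mean of 10 CPM or more. The 15 largest rises and falls, up to 8 transcription factors per direction and up to 4 genes per list were named; 1 of the rises and 1 list are not reported here. Other list members are named to give their value, for their promoter window, or after their values were seen. Symbols came from a gene name table (24843 of 32937 Ensembl IDs), and lengths, GC and coordinates from GENCODE 29. Promoter windows came from RefSeq (GRCh38.p14), with 7647 of 9242 genes matched. The correction subtracts each library's median log ratio over 20 classes of GC and 20 of length.

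On simulated counts for 1000 against 0 µM over 17468 genes, 28 of 50 genes changed 1.5-fold, 45 of 50 changed 2-fold and 50 of 50 changed 3-fold were recovered, and 10 of 17268 unchanged genes were called. Changes were planted only in genes of 10 CPM or more. Counts were drawn independently per gene, without the tilt by length and GC of the real libraries. The 10 calls therefore do not measure false calls in the real data. Alternatives were DESeq2 1.42.0, other size factors and filters, stricter thresholds, the 6 libraries alone, a replicate block, each library left out, and the correction.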

Additional observations from a re-analysis of the deposited data

How the results depend on the processing

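The balance of calls turned from even or more higher to more lower with a 2-fold minimum, and against 0.1 µM also after the GC and length correction (2290 higher, 2311 lower). At an adjusted p under 0.01, 2250 features stayed lower than at 0 µM, and with a 2-fold minimum 654 were higher and 882 lower. Leaving out 1 library gave 2705 to 3682 higher and 2436 to 3200 lower. Against 0.1 µM the counts were 1335 higher and 995 lower at 0.01, 311 and 379 with the 2-fold minimum, and 1400 to 2286 higher and 1031 to 1808 lower with 1 library left out. Between 0.1 and 0 µM DESeq2 called 521, the fit without a filter 101 and the fit of 6 libraries 1, and leaving out 1 library gave 0 to 865. Of the 290 named genes, 265 kept their call after the GC and length correction, 23 lost it and 2 turned: CHORDC1 stood at -0.0007 and GNB2 at 0.02, and with the replicate block added at -0.0032 and 0.02. In those 2 fits neither was called. DESeq2, RLE size factors and scaling without mitochondrial genes changed no named call and moved the median of all genes by 0.028 or less. The replicate numbers did not pair the libraries: deviations of same-numbered libraries at 0 and 1000 µM correlated at -0.286, 0.076 and 0.443. With the replicate block 3486 were higher and 3377 lower, and 1 named gene lost its call. The number of members called moved by over 1.5 times in 31 of 89 lists under the correction and in 38 against 0.1 µM. It moved in 19 lists when only members of at least 10 CPM were kept. With 1 library left out it moved in 1 to 22 lists, the most without 1000 µM replicate 3. In the simulations, which lacked the tilt by length and GC, 28 of 50 genes with a 1.5-fold change were recovered. Changes of that size can thus be missed at this depth and replication even without the tilt, and recovery under it was not tested.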
